A study of Mus musculus with 6 samples.

Results

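The ubiquitin-conjugating enzymes, or E2 enzymes, whose gene symbols start with Ube2 were examined in mouse fetal liver cells sorted as medium for CD71 and negative for Ter119, a gate set for red cell precursors. The deposited table held 34 such genes among 19436 usable rows, and they were taken by symbol alone, leaving out pseudogenes. Each of the 34 was read in both genotypes and all entered the test, although Ube2u reached the minimum level only through the -77-/- libraries.

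An E2 enzyme takes activated ubiquitin from an E1 enzyme onto a cysteine and, usually with an E3 ligase that binds the target, passes it on to a protein. Some family members carry relatives of ubiquitin instead: SUMO, NEDD8 or ISG15. Which E2 takes part shapes the kind of chain built, and so whether a protein is degraded, relocated or made to signal. In maturing red cells this machinery clears much of the proteome, and Ube2o and Ube2h are among the E2 enzymes known from that work.

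The samples were cells from livers of C57BL/6 embryos at E14.5, sorted on CD71, the transferrin receptor, and Ter119, a marker of later red cells. Libraries were 3 from wild type embryos, which the design text calls -77+/+, and 3 from -77-/- embryos, which lack on both alleles an enhancer that lies upstream of Gata2. No other allele or treatment was named for either genotype, and neither litter nor batch was given. Nothing said whether each library came from its own embryo, so p-values measure the spread between these libraries. Replicates were numbered in record order and do not pair across genotypes. Values of a gene are listed in the order of replicates 1 to 3.

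Values are normalized reads, the authors' gene counts divided by 1 size factor per library, from 16516338 to 20468899 recovered reads per library. They are not per length, so levels are not compared between genes. Differences, given with their SE, are -77-/- minus wild type on the scale of log2(normalized reads + 1), where changes of genes near 0 depend on the added 1 and on single libraries, for genes with a mean of at least 10 in the higher genotype, and 16 alternative settings were run, 6 of which leave out 1 library. Gata2 stood at 128, 87.8 and 61.5 in wild type and 74.2, 26.2 and 34.2 in -77-/-, lower on average with overlap (-1.10 ± 0.60 on the log2 scale, adjusted p = 0.183 by limma). The labelled cell type was checked with 12 red cell and 12 monocyte markers. The summed red cell markers ran from 36175 to 40032 in wild type and from 3566 to 7446 in -77-/-, with 11 of the 12 genes lower. A large part of these sums is Tfrc, the gene of CD71, on which the cells were sorted. Tfrc stood at 17456, 14441 and 11831 in wild type and 4140, 2367 and 3413 in -77-/-. The summed monocyte markers ran from 1882 to 3610.2 in wild type and from 39235 to 52798 in -77-/-, with all 12 genes higher. Beside wild type, the -77-/- libraries thus held little of the red cell markers and far more of the monocyte markers. The monocyte marker Fcgr1 was at 0 in 1 wild type library, and no other marker of either list was at 0 in any library. In sorted bulk cells, fewer cells of a type and less RNA per cell cannot be told apart, and the part that this difference in markers had in the results below was not tested. Wild type replicate 2 differed from the other 5 libraries in Xist, at 41877 normalized reads against 28.5 to 63.2.

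Of the 34 genes, 10 passed the test between genotypes, 4 higher and 6 lower in -77-/-. That is 29.4% of the family, where 32.2% of all 15821 genes tested passed with limma at an adjusted p under 0.05. The family was called about as often as the background. Split by direction, 11.8% of the family was higher and 17.6% lower, against 16.9% and 15.2% of all genes. The family's changes were small beside those of other genes: the median absolute log2 fold change was 0.37, against 0.72 over all genes tested. Calls of at least 2-fold were made for 3 members, or 8.82%, where 18.7% of all genes had one. Neither comparison was matched for the level of reads, and whether level had a part in it was not tested. The median log2 fold change was -0.17 for the family and 0.10 for all genes tested, and 23 of the 34 members had a negative value. Libraries of the genotypes did not overlap for 14 members, or 41.2%, where 46.5% of all genes tested showed no overlap. Of these members 7 lay higher and 7 lower in -77-/-, 20.6% each, against 25.0% and 21.4% of all genes. On the recovered reads, 11 members passed with edgeR and TMM factors, 10 with edgeR and RLE factors, 10 with DESeq2 and 12 with limma-voom. The shares of all genes were 29.9%, 29.7%, 33.1% and 32.4%. Without wild type replicate 2, 7 members passed, 3 higher and 4 lower. Over all genes, 3915 to 5108 passed with 1 library left out, against 5091 with all libraries. Counts of the gene lists below with 1 library left out are given without the share of all genes in the same fit. A drop in such a count is therefore not shown to be particular to its list. The authors' deposited table called 10 of the 34 at an adjusted p under 0.05, the same 10 genes, with 31.1% of 17124 genes called in all.

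**Figure D1:**
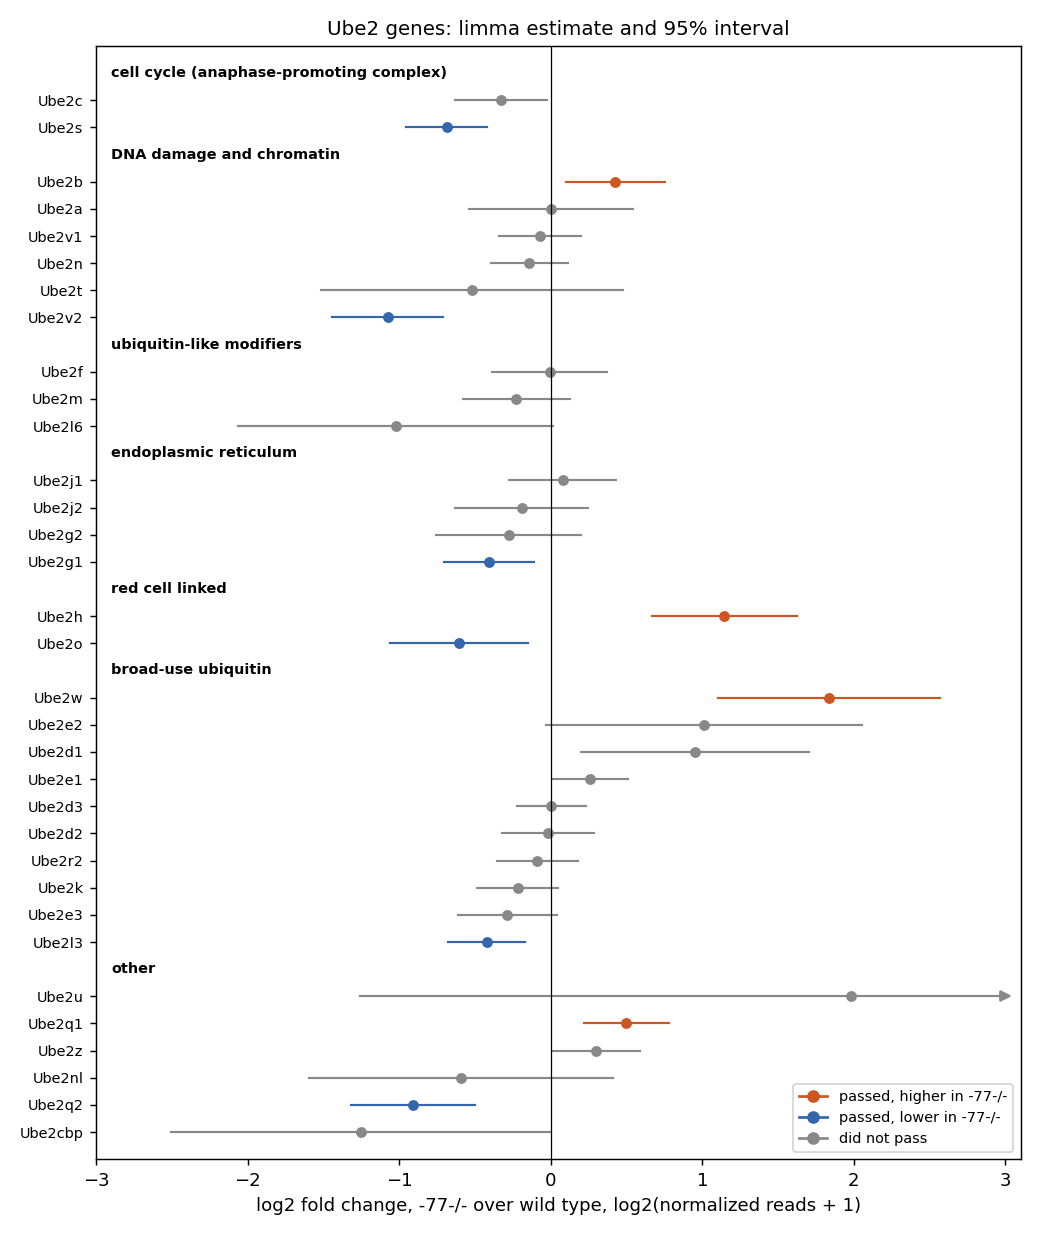
Log2 fold change of 33 of the 34 Ube2 genes, -77-/- over wild type, with its 95% interval from limma, grouped by role; colour shows whether a gene passed the test. Ube2w and Ube2h lie farthest to the right of those that passed and Ube2v2 farthest to the left, and the interval of Ube2u runs past the axis.

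Summed over the family, the normalized reads were 45192, 46742 and 45360.0 in the wild type libraries and 43591, 39751 and 42731 in the -77-/- ones. The family took 0.241% to 0.254% of reads in wild type and 0.234% to 0.245% in -77-/-, which overlapped. So the sum was slightly lower in -77-/- on the normalized scale, while its share of all reads did not separate the genotypes.

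Ube2w had the largest rise among the members that passed. This E2 (ENSMUSG00000025939) is known for placing ubiquitin on the amino terminus of proteins rather than on lysine. Its normalized reads were 127, 123 and 61.5 in the wild type libraries and 361, 377 and 329 in the -77-/- libraries. All 3 -77-/- libraries stood well above the wild type ones, and the mean was 3.43-fold higher (104 ± 36.5 to 356 ± 24.7, SD, n = 3 here and throughout; 1.84 ± 0.34 on the log2 scale, adjusted p = 7.3e-04 by limma).

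Ube2h (ENSMUSG00000039159), which works with the CTLH ligase of maturing red cells, was also higher in -77-/-. It stood at 254, 331 and 248 in the wild type libraries and 511, 649 and 687 in the -77-/- libraries. The lowest -77-/- library lay above the highest wild type one, and the mean was 2.22-fold higher (1.15 ± 0.22 on the log2 scale, adjusted p = 0.0011 by limma). The copy Gm26526 on another chromosome, which has no row in the table under that name, shares 44.0% of the stretches of 50 bases, the read length, found in Ube2h transcripts of GENCODE M21. Reads from such stretches cannot be assigned by sequence alone.

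RefSeq lists a pair of starts for Ube2h. The upstream windows of both are shown because Ube2h had one of the largest rises and one of its windows holds letters that GATA factors can bind (GATA with A or T before it and A or G after it, on either strand, in capitals). They are the 250 bases before each start, on the minus strand of GRCm38.p6, at chr6:30304540-30304789 and chr6:30243804-30244053.
Ube2h, first start: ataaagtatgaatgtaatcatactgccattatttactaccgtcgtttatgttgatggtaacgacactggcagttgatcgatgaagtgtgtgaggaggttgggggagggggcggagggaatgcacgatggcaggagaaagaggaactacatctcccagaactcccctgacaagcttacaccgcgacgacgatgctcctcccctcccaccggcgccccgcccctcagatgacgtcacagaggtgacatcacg
Ube2h, second start: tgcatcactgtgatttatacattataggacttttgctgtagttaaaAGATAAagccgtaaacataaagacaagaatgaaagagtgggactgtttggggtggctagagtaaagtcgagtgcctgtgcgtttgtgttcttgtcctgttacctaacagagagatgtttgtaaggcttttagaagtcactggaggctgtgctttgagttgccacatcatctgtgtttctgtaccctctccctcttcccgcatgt
The window of the second start holds 1 match, which begins 204 bases before the start, and that of the first holds none. Counts per gene do not tell which start was used.

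Ube2o (ENSMUSG00000020802), a large enzyme that is both E2 and E3 and removes ribosomal proteins and unpaired globin in young red cells, was lower. It had 826, 794 and 561 in the wild type libraries and 418, 429 and 579 in the -77-/- libraries. The third replicate of each genotype broke the separation, at 561 and 579, so the genotypes overlapped (727 ± 145 to 475 ± 90.0; -0.61 ± 0.21 on the log2 scale, adjusted p = 0.0405 by limma). The call of Ube2o ended when any 1 of wild type replicates 1 and 2 and -77-/- replicates 1 and 2 was left out (adjusted p = 0.148, 0.129, 0.122 and 0.130). Ube2h and Ube2o, the red cell linked members, moved in opposite directions.

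The CTLH ligase, the E3 that Ube2h serves, also had subunits that moved either way. Of its 11 measured subunits 1 was higher and 4 were lower, 45.5% against 32.2% of all genes, with a median log2 fold change of -0.26. The number passing was 3 without -77-/- replicate 2, 2 without -77-/- replicate 3, 2 without wild type replicate 1 and 2 without wild type replicate 2. Ranbp9 rose from 1054 ± 68.1 to 1578 ± 157 and its relative Ranbp10 fell from 1427 ± 118 to 964 ± 121. Armc8, an armadillo-repeat subunit, fell from 780.0 ± 139 to 535 ± 54.5, a call that ended when any 1 of wild type replicates 1 and 2 and -77-/- replicates 2 and 3 was left out (adjusted p = 0.0874, 0.176, 0.131 and 0.128) and without the filter on low values (adjusted p = 0.0501). The catalytic pair did not pass: the log2 fold change was 0.031 for Maea (95% interval -0.25 to 0.31) and 0.12 for Rmnd5a (-0.16 to 0.40), nor did Wdr26, at 0.18 (-0.062 to 0.43).

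Ube2s and Ube2c serve the anaphase-promoting complex, which marks cyclins for degradation as cells leave mitosis: Ube2c starts the chain and Ube2s extends it. Ube2s (ENSMUSG00000060860) was 1.61-fold lower in -77-/-, at 2278, 2098 and 2547 in the wild type libraries and 1403, 1389 and 1501 in the -77-/- libraries. The highest -77-/- library lay below the lowest wild type one (-0.69 ± 0.13 on the log2 scale, adjusted p = 6.1e-04 by limma). Ube2c had 1434, 1746 and 1412 in wild type and 1342, 1162 and 1147 in -77-/-, again without overlap, but did not pass (-0.33 ± 0.14 on the log2 scale, adjusted p = 0.0928 by limma, and no alternative called it). Of 17 genes of the complex and its regulators 2 passed, both lower. That is 11.8%, below the 32.2% of all genes tested, with a median log2 fold change of -0.16. The number passing was 0 without -77-/- replicate 2, 1 without -77-/- replicate 3, 1 without wild type replicate 1, 0 without wild type replicate 2 and 1 without wild type replicate 3. Where limma called 0, it gave an unadjusted p under 0.05 to 2 and to 3 genes, and with all libraries 1 to 3 genes passed under the other tests and settings. Anapc1, the largest subunit, had a log2 fold change of -0.27 and Cdc27, which binds the activators, -0.37. The call of Anapc1 ended when any 1 of wild type replicates 1, 2 and 3 and -77-/- replicates 2 and 3 was left out (adjusted p = 0.0558, 0.148, 0.0600, 0.105 and 0.106) and with edgeR and RLE factors (adjusted p = 0.0542). That of Cdc27 ended when any 1 of wild type replicates 1 and 2 and -77-/- replicates 1 and 2 was left out (adjusted p = 0.0883, 0.115, 0.0942 and 0.0714). Anapc11, the subunit that binds the E2, had -0.16 (95% interval -0.83 to 0.50). Among 16 genes of cycling cells 4 passed, all lower, or 25% against 32.2% of all genes (the number passing was 3 without wild type replicate 2). They include the cyclins Ccna2, at -0.71, and Ccnb1, at -0.51. Over the whole list 7 log2 fold changes were positive and 9 negative, with a median of -0.16 against 0.10 for all genes tested.

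The window before the start of Ube2s is shown because it is the other family window with a GATA match. It lies on the minus strand at chr7:4812341-4812590 of GRCm38.p6, with the match in capitals, which begins 186 bases before the start.
Ube2s: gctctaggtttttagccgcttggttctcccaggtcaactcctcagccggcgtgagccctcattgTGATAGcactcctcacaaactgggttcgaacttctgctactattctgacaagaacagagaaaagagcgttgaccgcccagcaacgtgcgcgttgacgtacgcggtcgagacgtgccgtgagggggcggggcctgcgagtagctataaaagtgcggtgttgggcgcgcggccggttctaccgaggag
RefSeq windows were found for 26 of the 34 genes, 37 windows in all, and not for Ube2d2, Ube2e3, Ube2g2, Ube2nl, Ube2o, Ube2v2 and Ube2w, among others. A GATA match was in 2 of the 37, or 5.41%, against 26.5% of all 32851 windows. CCNCNCCC, letters that Kruppel-like factors can bind, was in 30 of the 37, or 81.1%, against 45.9% of all windows. CCAAT was in 18.9% against 33.8%, and TTTGAA, found before many cell cycle genes, in 8.11% against 16.0%, Ube2c among them. Both strands were searched, and matches of different motifs may overlap. The windows were not matched for base composition, and some genes have several windows. Whether either had a part in these shares was not tested. Whether any of these matches had a part in the levels of a gene was not tested.

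**Figure D2:**
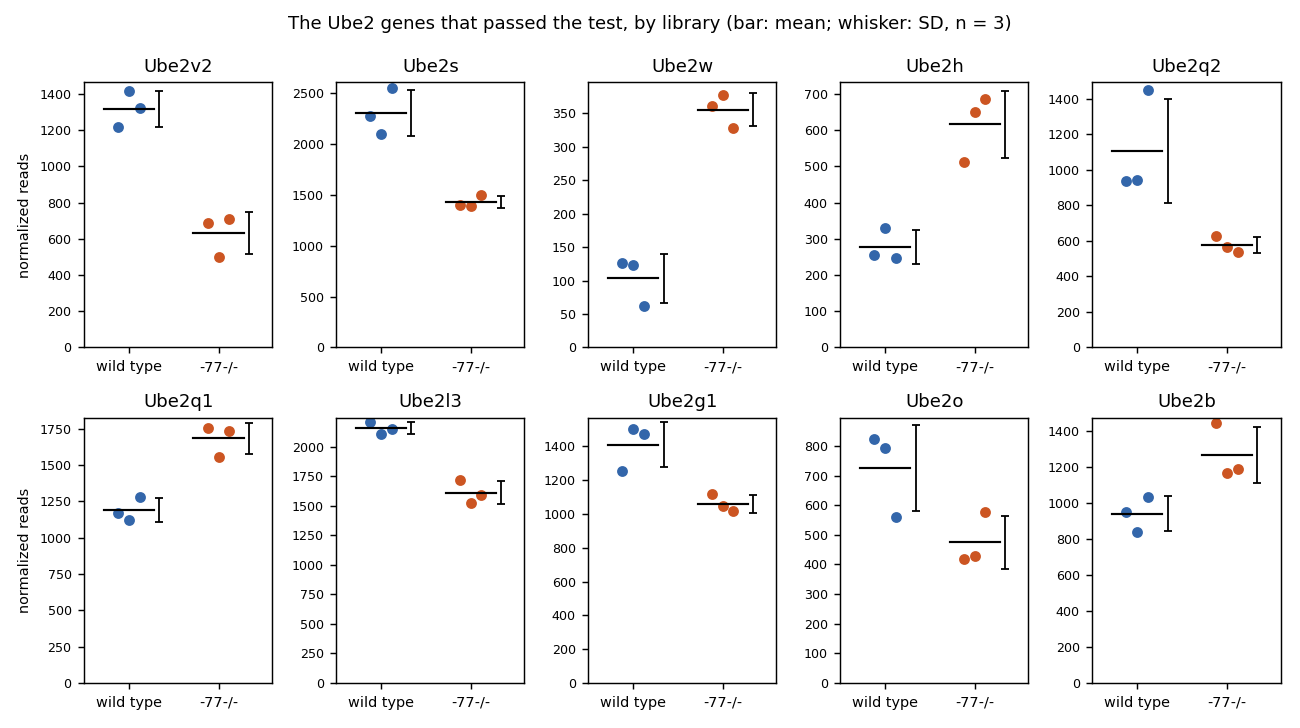
Normalized reads of the 10 Ube2 genes that passed the test, 1 point per library, with the mean of each genotype as a bar and the SD over 3 libraries as a whisker; each axis starts at 0. The genotypes overlap in Ube2o and in none of the other 9 genes.

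Ube2v2 (ENSMUSG00000022674) fell most among the members that passed. It is a variant E2 without the catalytic cysteine that pairs with Ube2n to build chains linked through lysine 63, as DNA damage tolerance requires. Its values were 1216, 1416 and 1322 in the wild type libraries and 685, 499.7 and 709 in the -77-/- libraries. The 3 -77-/- libraries were all far below wild type, and the mean was 2.09-fold lower (-1.08 ± 0.17 on the log2 scale, adjusted p = 2.0e-04 by limma). The pseudogene Gm6565, which shares 5.41% of its stretches of 50 bases, stood at 133, 86.8 and 154 in wild type and 29.5, 33.1 and 43.5 in -77-/-. Its partner Ube2n did not pass, with 2148, 2287 and 2193 in wild type and 2198, 1962 and 1861 in -77-/- and a log2 fold change of -0.14 (95% interval -0.39 to 0.11). Nor did Ube2v1, the other variant partner, with 2254, 2244 and 1823 in wild type and 2097, 1848 and 2055 in -77-/- and -0.071 (-0.34 to 0.20). The neighbouring gene model Gm20431 shares 56.8% of the Ube2v1 stretches.

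Ube2a and Ube2b are near twins that ubiquitinate PCNA with Rad18 and histone H2B with Rnf20. Ube2b (ENSMUSG00000020390) was higher in -77-/-, at 949, 839 and 1031 in the wild type libraries and 1442, 1166 and 1186 in the -77-/- libraries. The genotypes did not overlap, but the difference was modest (1.35-fold higher; 0.43 ± 0.15 on the log2 scale, adjusted p = 0.0449 by limma). The call of Ube2b ended when any 1 of wild type replicates 1 and 2 and -77-/- replicates 1, 2 and 3 was left out (adjusted p = 0.0841, 0.148, 0.157, 0.0617 and 0.0821) and without the filter on low values (adjusted p = 0.0550) and with DESeq2 (adjusted p = 0.0504). Ube2a had 379, 316 and 244 in wild type and 319, 332 and 276 in -77-/-, with broad overlap and a 95% interval of the log2 fold change from -0.54 to 0.54. Rad18 fell from 1488 ± 200.1 to 996 ± 138, a call that ended without -77-/- replicate 2 (adjusted p = 0.0540), and Rnf20 did not pass, at -0.19 (-0.44 to 0.056). Ube2t, the E2 of the Fanconi anaemia pathway, had 130.4, 80.8 and 104 in wild type and 62.0, 96.2 and 61.5 in -77-/-, with overlap (-0.52 ± 0.47 on the log2 scale, adjusted p = 0.424 by limma). Its E3 Fancl also did not pass, at -0.40 (-0.96 to 0.16). Of the 20 Fanconi and postreplication genes 3 passed, all lower, or 15% against 32.2% of all genes. The median log2 fold change of the 20 was -0.25. The number passing was 2 without -77-/- replicate 1, 2 without -77-/- replicate 3 and 2 without wild type replicate 1. It was 3 without wild type replicate 2 and 5 without wild type replicate 3, 1 of these 5 being higher. Fancm, a DNA translocase, had -0.43, a call that ended when any 1 of wild type replicates 1 and 3 and -77-/- replicates 1 and 3 was left out (adjusted p = 0.0894, 0.107, 0.146 and 0.0762).

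Ube2q1 and Ube2q2, relatives with a long amino-terminal extension, moved apart. Ube2q1 (ENSMUSG00000042572) rose, at 1165, 1124 and 1279.8 in the wild type libraries and 1753, 1556 and 1735 in the -77-/- libraries (1.41-fold higher; 0.50 ± 0.13 on the log2 scale, adjusted p = 0.0088 by limma). Ube2q2 (ENSMUSG00000032307) fell, at 936, 941 and 1446 in the wild type libraries and 628, 564 and 539 in the -77-/- libraries (1.92-fold lower; -0.91 ± 0.19 on the log2 scale, adjusted p = 0.0018 by limma). Neither gene's genotypes overlapped, and wild type replicate 3 was the highest wild type library for both, by a wide margin for Ube2q2. The pseudogene Gm4895 shares 16.4% of the Ube2q2 stretches, and had 138, 0 and 67.2 in wild type and 126, 20.4 and 47.0 in -77-/-.

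Ratios between related members within a library do not depend on how libraries are scaled, and 8 such pairs were compared, a comparison added after the values were seen. The log2 ratio of Ube2q1 to Ube2q2 was 0.315, 0.256 and -0.176 in wild type and 1.48, 1.46 and 1.69 in -77-/-, a shift of 1.41. That of Ube2v1 to Ube2v2 moved by 1.00, from 0.672 ± 0.213 to 1.68 ± 0.184. Ube2d1 over Ube2d3 shifted by 0.949 and Ube2e1 over Ube2e3 by 0.547. In these 4 pairs the genotypes did not overlap, and the two-sided exact permutation p was 0.10, the smallest that 3 against 3 libraries allow (0.20 adjusted over the 8 pairs). The other 4 overlapped, with shifts of 0.601 for Ube2l3 over Ube2l6, 0.272 for Ube2j1 over Ube2j2, -0.130 for Ube2g1 over Ube2g2 and -0.427 for Ube2a over Ube2b, and exact permutation p-values of 0.40, 0.60, 0.60 and 0.20.

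**Figure D3:**
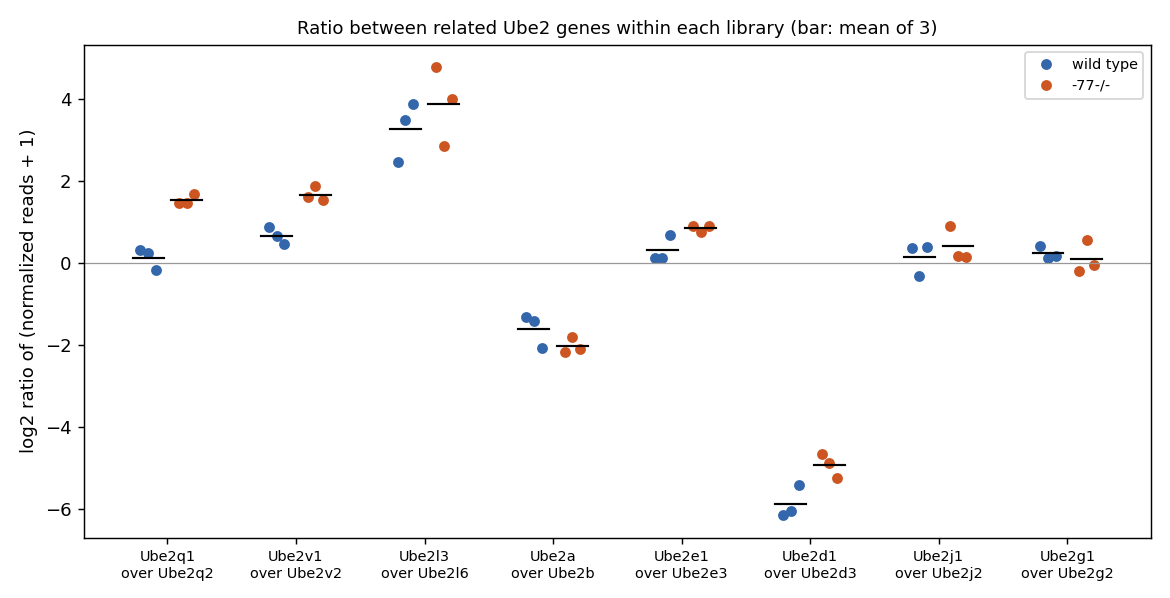
Log2 ratio between the members of 8 related pairs in each library, on values with 1 added, wild type at left and -77-/- at right of each pair, with the mean of 3 libraries as a bar. Only shifts between genotypes can be read, since values are not per length; the Ube2q1 over Ube2q2 ratio shifts by 1.41 with no overlap.

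Among the genes around SUMO conjugation, Uba2, the catalytic subunit of the SUMO E1, fell from 6301 ± 468 to 3944 ± 701 (-0.69 ± 0.13 on the log2 scale, adjusted p = 6.5e-04 by limma), while Sae1, the other subunit, had -0.19 (-0.48 to 0.093). Sumo2 had -0.34, a call that ended when any 1 of wild type replicates 2 and 3 and -77-/- replicates 1 and 2 was left out (adjusted p = 0.0881, 0.106, 0.0781 and 0.113). Of 12 SUMO ligases and proteases 1 was higher and 4 were lower, or 41.7% against 32.2% of all genes. The number passing was 5 without wild type replicate 2. The ligase Pias1 rose from 678 ± 64.4 to 1249.6 ± 74.4, while Ranbp2, a ligase of the nuclear pore, fell from 18739 ± 2251 to 11848 ± 335 and the protease Senp7 from 655 ± 66.3 to 380.4 ± 67.4.

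The NEDD8 enzymes Ube2m and Ube2f, which switch on cullin ligases, did not pass. Ube2m had 1215, 1170.4 and 1502 in wild type and 1358, 1015 and 965 in -77-/-. Ube2f had 863, 1105 and 742 in wild type and 964, 778 and 929.8 in -77-/-. Both overlapped between genotypes, with log2 fold changes of -0.23 (-0.58 to 0.13) and -0.0071 (-0.39 to 0.37). Their E1 is made of Nae1 and Uba3. Nae1 fell from 1078 ± 43.9 to 769 ± 104, a call that ended when any 1 of wild type replicates 1 and 2 and -77-/- replicates 2 and 3 was left out (adjusted p = 0.0612, 0.0775, 0.0871 and 0.110). Uba3 had -0.19 (-0.61 to 0.23) and Nedd8 0.094 (-0.21 to 0.40). Of 15 cullin partners 1 was higher and 4 were lower, or 33.3% against 32.2% of all genes. The number passing was 3 without -77-/- replicate 1 and 2 without -77-/- replicate 2. It was 4 without wild type replicate 1, 4 without wild type replicate 2 and 7 without wild type replicate 3. The cullin Cul4a fell from 3808 ± 299 to 2086 ± 256 and Dcun1d5, a NEDD8 co-ligase, from 2193 ± 117 to 1488 ± 196, and Dcun1d3, another co-ligase, rose from 94.3 ± 26.5 to 221 ± 65.5. The call of Dcun1d3 ended when any 1 of wild type replicate 2 and -77-/- replicates 1 and 2 was left out (adjusted p = 0.0626, 0.0898 and 0.128). The RING subunits did not pass, at -0.59 for Rbx1, which passed without wild type replicate 2 (adjusted p = 0.0162), and -0.21 for Rnf7 (-0.57 to 0.14).

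Ube2l6 is the E2 for ISG15, a modifier that interferon induces together with its enzymes. Its values were 395, 185 and 145 in the wild type libraries and 61.0, 208 and 97.3 in the -77-/- libraries. Wild type replicate 1 was highest and -77-/- replicate 1 lowest, and -77-/- replicate 2 lay inside the wild type range, so the genotypes overlapped (241 ± 134 to 122 ± 76.6; -1.02 ± 0.48 on the log2 scale, adjusted p = 0.125 by limma, 95% interval -2.06 to 0.017). It passed without -77-/- replicate 2 (adjusted p = 0.0401), at a log2 fold change of -1.50, with a range over the alternatives of 0.0401 to 0.426. The other genes of the system rose and 5 of 5 passed, or 100% against 32.2% of all genes. Isg15 and Usp18 reached the minimum level only through the -77-/- libraries. The number passing was 3 without -77-/- replicate 2 and 4 without wild type replicate 2. Isg15 itself had 2.81, 19 and 0 in wild type and 91.5, 149.7 and 106 in -77-/-, or 22 and 368 reads in all (4.75 ± 1.10 on the log2 scale, adjusted p = 0.0037 by limma). Usp18, which removes ISG15, had 26 reads in all in wild type and 325 in -77-/-, and rose by 4.51 on the log2 scale. Its log2 fold change ran from 3.38 to 5.75 over the alternatives. The E1 Uba7 rose by 1.02, the E3 Herc6 by 0.91 and Trim25, another E3, by 0.61. The call of Uba7 ended without -77-/- replicate 2 (adjusted p = 0.107), and that of Herc6 when any 1 of wild type replicates 1 and 2 and -77-/- replicates 2 and 3 was left out (adjusted p = 0.108, 0.0705, 0.186 and 0.0928). Of 16 interferon-induced genes 15 passed, all higher, or 93.8% against 32.2% of all genes. Like Isg15 and Usp18, which are among the 16, Mx2 and Oas2 reached the minimum level only through the -77-/- libraries. Their wild type means were 0.313 and 0.712. Genes that enter the test in this way can pass only as higher, which limits what this share shows. The summed level of the 16 ran from 1201 to 1497 in wild type and from 6187 to 7939.5 in -77-/-. Of the 16, 7 genes were at 0 in at least 1 wild type library and none at 0 in -77-/-. Whether Ube2l6 differed from these genes in its response was not tested.

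**Figure D4:**
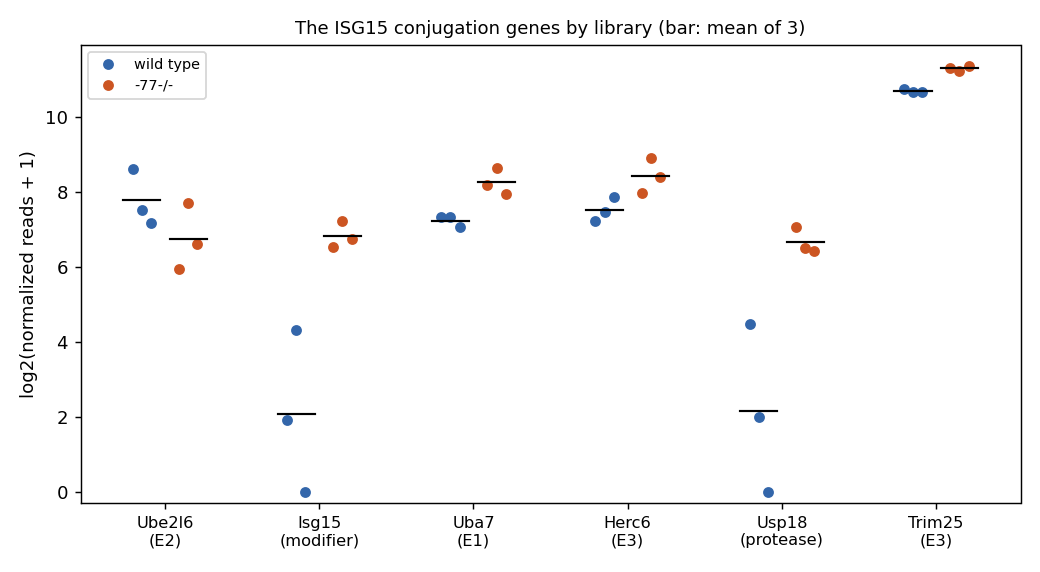
Values of Ube2l6 and of 5 other genes of ISG15 conjugation in each library, as log2 of normalized reads with 1 added; bars are means of 3 libraries. The 3 -77-/- libraries stand above wild type for Isg15, Uba7, Herc6, Usp18 and Trim25, and overlap it for Ube2l6.

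The windows of Ube2l6 and Isg15 are set side by side because the modifier rose and its E2 did not pass. Capitals mark the core of the interferon-stimulated response element, GAAA, any 2 bases and GAAA again, searched on both strands. The Ube2l6 window lies on the plus strand at chr2:84798578-84798827 and that of Isg15 on the minus strand at chr4:156200819-156201068, both of GRCm38.p6.
Ube2l6: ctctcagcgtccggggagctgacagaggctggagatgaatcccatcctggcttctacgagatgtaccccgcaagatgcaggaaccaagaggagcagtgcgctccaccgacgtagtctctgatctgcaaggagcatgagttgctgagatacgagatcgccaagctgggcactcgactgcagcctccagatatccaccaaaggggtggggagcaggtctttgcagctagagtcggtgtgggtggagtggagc
Isg15: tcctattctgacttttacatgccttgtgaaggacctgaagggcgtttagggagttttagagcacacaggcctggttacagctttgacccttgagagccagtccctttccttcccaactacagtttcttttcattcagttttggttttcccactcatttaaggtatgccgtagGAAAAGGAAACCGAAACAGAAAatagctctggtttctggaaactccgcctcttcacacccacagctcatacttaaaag
Isg15 has 3 overlapping matches, which begin 78, 72 and 66 bases before the start. None of the 37 family windows holds these letters, against 2.98% of all windows, and 37 windows are too few to judge so small a share. Only the 250 bases before each start were searched. Whether these letters had a part in the levels of either gene was not tested.

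Enzymes of the endoplasmic reticulum, where misfolded proteins are handed out for degradation, showed 1 call among 4 genes. That is 25%, against 32.2% of all genes. Ube2g1 (ENSMUSG00000020794) was lower, at 1256, 1502 and 1471 in the wild type libraries and 1117, 1049.9 and 1015 in the -77-/- libraries. Its genotypes did not overlap (1.33-fold lower; -0.41 ± 0.14 on the log2 scale, adjusted p = 0.0365 by limma). The call of Ube2g1 ended when any 1 of wild type replicates 2 and 3 and -77-/- replicates 2 and 3 was left out (adjusted p = 0.119, 0.0695, 0.0861 and 0.123) and without the filter on low values (adjusted p = 0.0504). Ube2g2, which acts in the degradation of misfolded proteins, had 933, 1370.0 and 1313 in wild type and 1286, 704 and 1042 in -77-/-. Ube2j1, anchored in the membrane, had 1079, 748 and 977 in wild type and 989, 943 and 997 in -77-/-. Ube2j2, its relative, had 835, 938 and 748 in wild type and 524, 837 and 894 in -77-/-. All of these 3 overlapped, with 95% intervals of -0.75 to 0.20, -0.27 to 0.43 and -0.63 to 0.25 on the log2 scale. Of 13 degradation partners 2 were higher and 2 lower, or 30.8% against 32.2% of all genes. The number passing was 5 without wild type replicate 2. Edem1, a lectin that picks misfolded glycoproteins, rose from 1239 ± 39.1 to 6536 ± 127 and the adaptor Sel1l from 1846 ± 189 to 2862 ± 304. The ligase March6 fell from 3552 ± 161 to 2384 ± 288. Aup1, which recruits Ube2g2, had -0.37 (-0.81 to 0.078), and Syvn1, the ligase of Ube2j1, -0.076 (-0.51 to 0.36).

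Among the E2 enzymes that serve many ligases, Ube2l3 (ENSMUSG00000038965) was lower. It loads RING-in-between-RING ligases such as parkin. It stood at 2209, 2105 and 2152 in the wild type libraries and 1717, 1524 and 1587 in the -77-/- libraries, with tight groups that did not overlap (1.34-fold lower; -0.42 ± 0.12 on the log2 scale, adjusted p = 0.0129 by limma). The call of Ube2l3 ended without -77-/- replicate 3 (adjusted p = 0.0514). Ydjc, which overlaps it on the other strand and shares 27.2% of its stretches of 50 bases, had 360.3, 428 and 335 in wild type and 299, 239 and 238 in -77-/-. The strand setting of the counting was not given, so reads of the pair may not be told apart.

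The Ube2d group holds the most widely used E2 enzymes. Ube2d1 had 91.0, 106 and 156 in the wild type libraries and 285, 199 and 195 in the -77-/- libraries, without overlap and 1.92-fold higher on average, and just missed the threshold (0.95 ± 0.35 on the log2 scale, adjusted p = 0.0508 by limma). It passed without wild type replicate 3 (adjusted p = 0.0175) and with a pseudocount of 5 (adjusted p = 0.0485), with a filter at 50 (adjusted p = 0.0399), with limma-voom (adjusted p = 0.0496) and with TMM scaling (adjusted p = 0.0495), with a range over the alternatives of 0.0175 to 0.163. Ube2d2, called Ube2d2a in later annotations, had 3052, 2825 and 2052 in wild type and 2534, 2456 and 2746 in -77-/-. Ube2d3 had 6604, 7124 and 6782 in wild type and 7290.3, 5956 and 7411 in -77-/-. Both overlapped, and their 95% intervals were narrow, -0.32 to 0.29 and -0.22 to 0.23 on the log2 scale.

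In the Ube2e group, Ube2e1 stood at 1859, 2126 and 2131 in wild type and 2512, 2365 and 2439 in -77-/-, without overlap, and did not pass (0.26 ± 0.12 on the log2 scale, adjusted p = 0.103 by limma). Ube2e2 had 103, 79.8 and 43.3 in wild type and 89.5, 221 and 151 in -77-/-, with overlap and a log2 fold change of 1.01 (95% interval -0.032 to 2.05). Ube2e3 had 1708, 1947 and 1314 in wild type and 1333, 1399.9 and 1290.0 in -77-/-, also with overlap, and -0.29 (-0.61 to 0.038). It passed without wild type replicate 3 (adjusted p = 0.0217).

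Ube2k and Ube2r2 build chains linked through lysine 48, which send proteins to the proteasome. Ube2k had 2336, 2434 and 1927 in wild type and 1939, 1896 and 1899.6 in -77-/-. Ube2r2 had 1662, 1817 and 1861 in wild type and 1537, 1773 and 1713 in -77-/-. Both overlapped, with log2 fold changes of -0.22 (-0.48 to 0.051) and -0.089 (-0.36 to 0.18). Cdc34, a relative of Ube2r2, had -0.38 (adjusted p = 0.0599 by limma), and passed when any 1 of wild type replicate 1 and -77-/- replicate 1 was left out (adjusted p = 0.0406 and 0.0289) and with a filter at 50 (adjusted p = 0.0497), with limma-voom (adjusted p = 0.0389) and with upper quartile scaling (adjusted p = 0.0436). Of the 8 genes of E2 enzymes or E2-like proteins with other names, 0 passed with limma, where 32.2% of all genes passed. By limma, 2 of the 8 had an unadjusted p under 0.05. With edgeR and with DESeq2 0 passed as well, and with limma-voom 1 did, which was Cdc34.

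Ube2z, which takes ubiquitin or FAT10 from the E1 Uba6, stood at 1267, 1113 and 1291 in wild type and 1499.8, 1397 and 1626 in -77-/-. The genotypes did not overlap, yet it did not pass (0.30 ± 0.14 on the log2 scale, adjusted p = 0.106 by limma). Uba6 had 0.12 (-0.27 to 0.52), and Uba1, the main E1 of ubiquitin, -0.15 (-0.34 to 0.042). Of 10 E1 genes 1 was higher and 2 were lower, or 30% against 32.2% of all genes. The number passing was 1 without -77-/- replicate 2 and 2 without wild type replicate 2. Among 13 genes for ubiquitin and its relatives 2 were higher and 1 lower, or 23.1% against 32.2% of all genes. The number passing was 2 without wild type replicate 2. Some lists share genes, so their counts are not separate results. Isg15 is in this list, the ISG15 system and the interferon-induced genes. Uba7 is in the E1 list and the ISG15 system, and Usp18 is in the ISG15 system and the interferon-induced genes.

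The remaining members had few reads or wide spread. Ube2cbp, which encodes an E3 that binds Ube2c, had 133, 83.8 and 266 in wild type and 25.4, 83.6 and 99 in -77-/- (-1.25 ± 0.58 on the log2 scale, adjusted p = 0.118 by limma). Ube2nl, a copy of Ube2n that shares 28.7% of its stretches of 50 bases with that gene, had 100.4, 149 and 213 in wild type and 162, 105 and 53.8 in -77-/- (-1.60 to 0.41). Ube2u had 15.9, 0.998 and 0 in wild type and 2.03, 19.4 and 32.4 in -77-/-, 18 and 60 reads in all, and did not pass, with values spread widely within each genotype (95% interval -1.26 to 5.21).

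**Figure D5:**
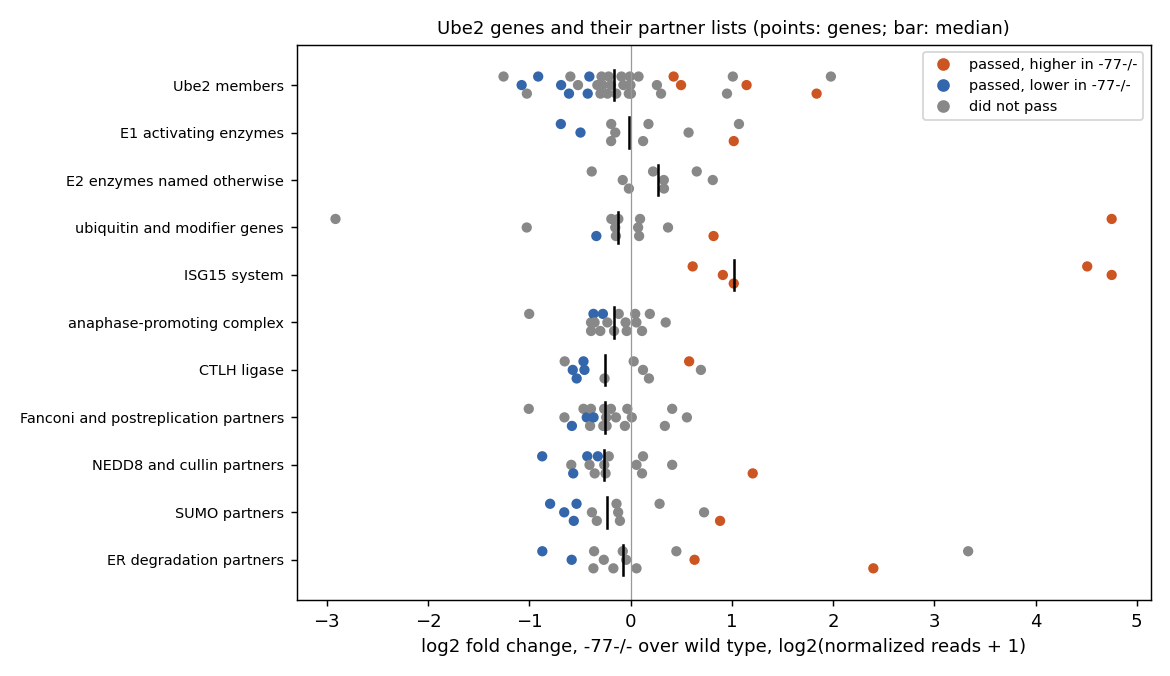
Log2 fold change of each tested gene, -77-/- over wild type, for the Ube2 genes and 10 lists of genes that work with them, with the list median as a bar; colour shows whether a gene passed the test. All 5 genes of the ISG15 system lie to the right of 0, and in the other lists genes lie on both sides.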

How the data were processed

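RNA was measured in 6 libraries, 3 wild type and 3 -77-/-, made from 10 ng of total RNA with an amplifying single-cell kit and read as single reads of 50 bases, per the labels' protocols. The submitters' processing notes name STAR 2.5, Bowtie, RSEM 1.2.31, DESeq2 and mm9. The sources used here do not state their roles, the annotation or the strand setting. The authors deposited 1 table of gene values per library, a signal that is read counts divided by 1 size factor per library, with their own log2 fold changes, p-values and adjusted p-values per the file headers. Amplified reads are not independent molecules.

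Whole reads were recovered by undoing the size factors (all values whole within 0.01 reads). Of 19444 rows, 8 with shifted columns were left out, and 247 symbols occurred more than once among the rest. No pair of libraries of the same genotype agreed within sampling noise, and pairs across genotypes were not compared. The test was limma 3.58.1 (R 4.3.3; trend, robust) on log2(value + 1), for genes with a mean of at least 10 in the higher genotype, adjusted by Benjamini-Hochberg over 15821 genes and called at an adjusted p under 0.05. Intervals are limma's at 95%. Code was tested on simulated data.

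Alternatives were pseudocounts of 0.1 and 5, no filter, a filter at 50, TMM and upper quartile scaling, each library left out, and, on the recovered reads, limma-voom, edgeR 4.0.16 with TMM or RLE factors and DESeq2 1.42.0. Of the 34 members 33 were named, and 1 member and some partners are not reported here one by one, though counts and sums over genes include them. From the other lists the 2 passing genes with the largest change in each direction and set partners of members were named, and Trim25 was added after its values were seen. The members and lists were chosen with earlier results of these data known. Promoter windows came from RefSeq (GRCm38.p6), and shared stretches of 50 bases from GENCODE M21 transcripts. No comparison of protein sequences was made.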

Additional observations from a re-analysis of the deposited data

How the results depend on the processing

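The number of family members passing stayed within 1.5 times the reported 10, at 8 without the filter on low values, 12 with limma-voom, TMM scaling or a filter at 50, and 7 to 11 with 1 library left out. All genes passing ran from 3915 to 5108 with 1 library left out. The family median ran from -0.18 to -0.11. Ube2v2, Ube2s, Ube2w, Ube2h, Ube2q2 and Ube2q1 passed under all 16 alternatives. Of 527 alternative fits of single members, 488 kept direction and call, 17 lost a call, 7 gained one and 15 changed sign; of 768 for partner genes the numbers were 714, 41, 6 and 7. Every change of sign was in a gene that did not pass. With 1 library left out the log2 fold change ran from -0.34 to 0.048 for Ube2j2, -0.072 to 0.19 for Ube2j1, -0.19 to 0.10 for Ube2d2, -0.14 to 0.15 for Ube2f, -0.052 to 0.11 for Ube2d3, -0.17 to 0.15 for Ube2a, -0.089 to 0.25 for Uba6, -5.8e-04 to 0.18 for Nedd8, -0.44 to 0.22 for Anapc11, -0.036 to 0.10 for Maea and -0.20 to 0.10 for Syvn1. Ube2d3 was also at -0.0023 with upper quartile scaling. The cause of these changes was not tested. Ube2u had 18 and 60 reads in all and was not tested under the filter at 50. No paired analysis was possible because the replicate numbers are only the order of the records.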
